A study of Mus musculus with 2 samples.

Results

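A set of 9 receptors that deliver a second signal to T cells were followed in donor T cells after allogeneic hematopoietic cell transplantation (allo-HCT). They were Cd28, Icos, Cd27, Tnfrsf4, Tnfrsf9, Tnfrsf18, Tnfrsf1b, Cd2 and Cd226, chosen by gene symbol, and they are 9 of the 32285 genes in the files. All 9 had UMIs in both libraries, and none was dropped. Each UMI (unique molecular identifier) stands for 1 captured RNA molecule.

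Lethally irradiated BALB/c (H-2d) mice were given T cell-depleted bone marrow from C57BL/6 (H-2b) donors together with purified splenic T cells of C57BL/6 origin, which the labels call naive. Donor T cells, recognized as CD45+, H2kb+, H2kd- and TCRβ+, were sorted from recipient spleens and examined by droplet scRNA-seq, with 1 library for day 7 and 1 for day 14. Both library names carry PBS, both libraries hold cells from pooled spleens, and mice in the study were 6 to 12 weeks old. Sample titles gave the day used here, because the protocol text of both libraries names a sort on day +7. With 1 library per day, the time point and the library cannot be told apart, no test between days was possible, and every interval given here is a 95% interval that covers counting error only.

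T cells need a signal through the antigen receptor and a further signal from costimulatory receptors for full activation. CD28 and ICOS belong to the immunoglobulin superfamily and signal largely through phosphoinositide 3-kinase, whereas CD27, OX40 (Tnfrsf4), 4-1BB (Tnfrsf9), GITR (Tnfrsf18) and TNFR2 (Tnfrsf1b) belong to the tumor necrosis factor (TNF) receptor superfamily and recruit TRAF adaptors that activate NF-κB. CD2 binds CD48 in mice, and CD226 (DNAM-1) shares its ligands with the inhibitory receptors TIGIT and CD96. Donor T cells in graft-versus-host disease engage several of these receptors, and regulatory T cells (Tregs) are known to carry high OX40, GITR and TNFR2.

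The promoters of 3 TNF receptor members are shown because these genes differed most between Foxp3+ and CD4 cells at day 7. Tnfrsf4 (ENSMUSG00000029075, chr4:156013843-156016612, + strand) and Tnfrsf18 (ENSMUSG00000041954, chr4:156026164-156028895, + strand) are neighbors on mm10, 9.55 kb apart, and Tnfrsf9 (ENSMUSG00000028965, chr4:150914562-150946102, + strand) lies on the same chromosome. Each line holds 300 bases, from 250 before to 50 after a RefSeq transcription start on GRCm38.p6, the same assembly as mm10, and all 3 are on the + strand. Capitals mark matches to the κB consensus on the printed strand, and to AP-1 (TGANTCA) and RUNX (TGTGGT) on either strand. The reverse strand was not searched for κB, and a match describes letters and not binding.
Tnfrsf4, chr4:156013445-156013744: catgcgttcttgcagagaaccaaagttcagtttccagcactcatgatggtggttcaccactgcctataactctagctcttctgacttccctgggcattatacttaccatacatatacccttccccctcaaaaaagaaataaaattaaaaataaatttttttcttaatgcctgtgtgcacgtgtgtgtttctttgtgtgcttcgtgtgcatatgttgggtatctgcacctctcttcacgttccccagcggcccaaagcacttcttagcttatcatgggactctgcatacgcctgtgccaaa
Tnfrsf18, chr4:156026072-156026371: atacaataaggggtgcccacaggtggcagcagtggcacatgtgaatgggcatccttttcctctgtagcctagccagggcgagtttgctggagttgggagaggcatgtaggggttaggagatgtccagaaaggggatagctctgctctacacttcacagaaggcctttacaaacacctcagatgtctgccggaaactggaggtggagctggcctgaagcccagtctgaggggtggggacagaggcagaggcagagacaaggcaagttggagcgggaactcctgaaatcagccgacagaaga
Tnfrsf9, chr4:150927749-150928048: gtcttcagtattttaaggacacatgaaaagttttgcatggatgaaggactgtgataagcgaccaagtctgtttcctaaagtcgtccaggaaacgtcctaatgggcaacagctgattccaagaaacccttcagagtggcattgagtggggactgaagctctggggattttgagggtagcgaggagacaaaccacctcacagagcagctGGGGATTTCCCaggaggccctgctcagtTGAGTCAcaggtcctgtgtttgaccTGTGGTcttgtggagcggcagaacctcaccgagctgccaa

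In the Tnfrsf9 window, 2 overlapping κB matches stood 43 and 42 bases before the start, an AP-1 match 15 bases before it and a RUNX match 10 bases after it. Of the RefSeq starts of Tnfrsf9, the start with matches is the start printed, and it lies inside the annotated gene. Among 32851 promoters of the same length, searched in the same way, 2.77% held a κB match, 7.81% an AP-1 match and 16.8% a RUNX match. The κB pattern was widened after the sequences were seen, so its share is a description only. The other RefSeq start of Tnfrsf9 (chr4:150919905-150920204) and the windows of Tnfrsf4, Tnfrsf18, Cd27 and Tnfrsf1b held none of the 3. This says only that these letters were not found there, with κB searched on the given strand only. RefSeq promoter entries were found for 5 of the 9 genes. Icos overlaps another annotated gene on its own strand (Gm37039), as Cd27 does (Mir8113).

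Cells were kept when 500 to 7500 genes were detected and at most 15% of their UMIs were mitochondrial. This left 7179 cells at day 7 and 7794 at day 14, with medians of 9210 and 8144 UMIs. The libraries shared 20 barcodes. T cells needed at least 2 UMIs of Cd3 or T cell receptor constant genes and few UMIs of other lineages. This T cell gate kept 6987 and 7626 cells. It was divided by Cd8a, Cd8b1, Cd4 and Foxp3 UMIs into a CD8 gate (5988 cells at day 7 and 5994 at day 14), a CD4 Foxp3-negative gate (458 and 695 cells) and a Foxp3+ gate that also required Cd4 (20 and 14 cells). Outside these gates were 207 and 522 T cells with UMIs of both Cd4 and Cd8, at median depths of 17237 and 13705.5 UMIs, and 314 and 401 with neither. Doublets were not removed, and their part in the cells with both was not tested. All 6 T cell markers were present in each of these gates. The myeloid markers summed to between 28.3 and 63.2 counts per 1000000 UMIs (CPM) over the 3 gates and both days, the erythroid markers to between 12.2 and 38.0 CPM and the B cell markers to between 1.40 and 65.8 CPM. In the Foxp3+ gate at day 14, 4 UMIs from 2 of the 8 myeloid genes gave 43.8 CPM. All 6 B cell UMIs there came from Cd79b and gave 65.8 CPM, and 2 erythroid UMIs gave 21.9 CPM. Lyz2 and Csf1r (myeloid), Klf1 (erythroid) and Ms4a1 (B cell) were among the markers at 0 there, which this depth cannot tell from a low level. The part of other cells' RNA in the results was not tested.

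**Figure D1:**
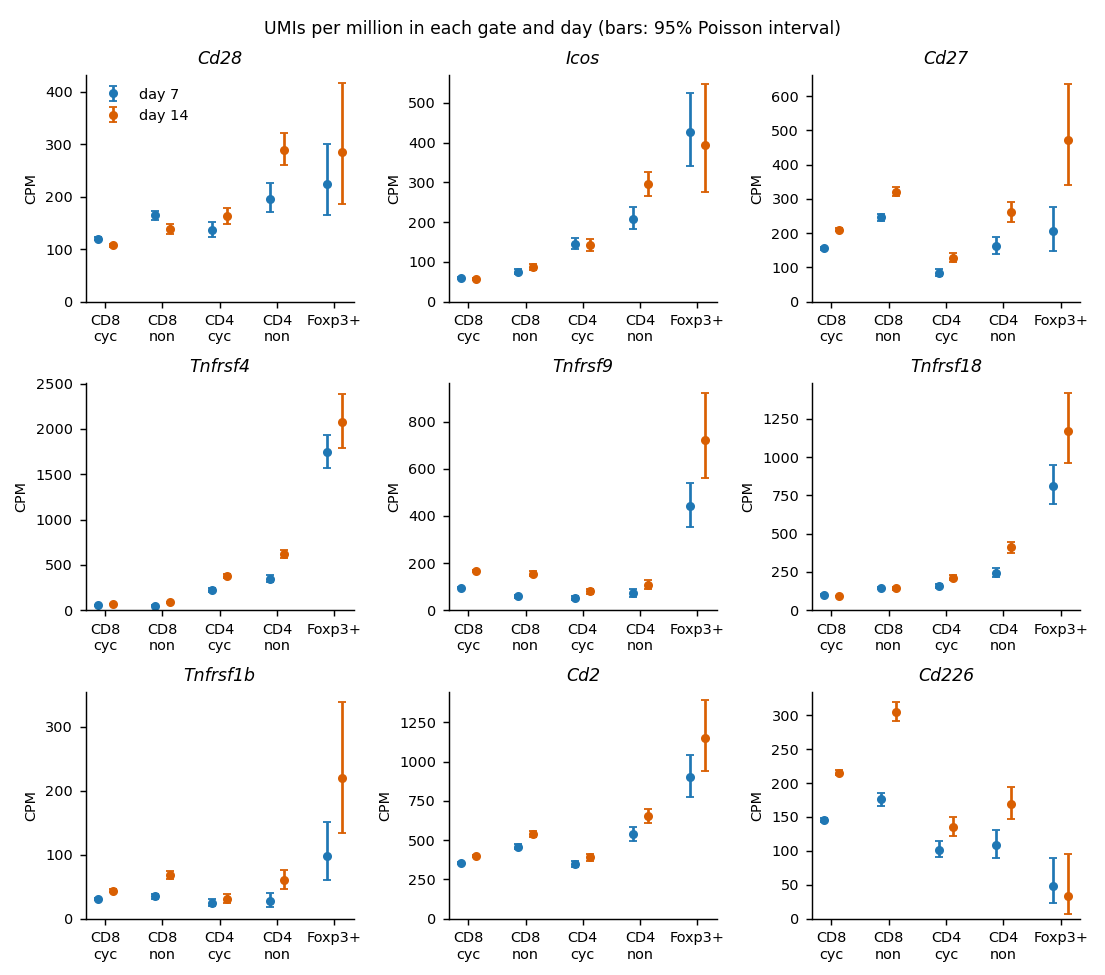
CPM of each member (vertical axis, from 0) in cycling and non-cycling CD8 cells, cycling and non-cycling CD4 Foxp3-negative cells and Foxp3+ cells at day 7 (blue) and day 14 (orange). Points are 1 library each and bars are exact Poisson intervals; Tnfrsf4 stood at 1746 and 2072 CPM in the Foxp3+ gate, and Cd226 stood at 305 CPM in non-cycling CD8 cells at day 14.

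CD28, the receptor for CD80 and CD86, was lower at day 14 than at day 7 in CD8 cells and higher in CD4 cells. In the CD8 gate, Cd28 stood at 129 CPM (126 to 132) at day 7 and at 113 CPM (111 to 116) at day 14. In the CD4 gate it stood at 163 CPM (152 to 175) and at 208 CPM (195 to 221). The intervals of both days did not overlap in either gate. In Foxp3+ cells Cd28 measured 225 CPM (165 to 300) and 285 CPM (186 to 418), which overlapped.

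ICOS, the CD28 relative that is induced after activation, differed little by day in CD8 cells and much by lineage. Icos stood at 61.9 CPM (60.1 to 63.8) and 61.6 CPM (59.7 to 63.5) in the CD8 gate at day 7 and day 14, and the intervals overlapped. The CD4 gate held 172 CPM (160 to 184) and 202 CPM (190 to 215), and the Foxp3+ gate 426 CPM (341 to 525) and 395 CPM (276 to 546). At each day the order was therefore Foxp3+, CD4, CD8, with no overlap between neighbors.

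CD27, the receptor for CD70, was present in all gates and higher at day 14 in each. Cd27 measured 175 CPM (172 to 178) and 230 CPM (227 to 234) in the CD8 gate at day 7 and day 14. The CD4 gate held less at both days, with 121 CPM (111 to 131) and 180 CPM (168 to 192). Among Foxp3+ cells the values were 205 CPM (148 to 278) from 42 UMIs and 471 CPM (341 to 635) from 43 UMIs.

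OX40, which sustains survival and expansion of antigen-experienced T cells, covered the widest range. Tnfrsf4 stood at 50.9 CPM (49.2 to 52.6) and 68.6 CPM (66.6 to 70.6) in the CD8 gate. It stood at 255 CPM (241 to 270) and 464 CPM (445 to 483) in the CD4 gate, and at 1746 CPM (1570 to 1937) and 2072 CPM (1787 to 2389) in the Foxp3+ gate. The 3 gates did not overlap at either day, and day 14 was above day 7 without overlap in the CD8 and CD4 gates.

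GITR, encoded beside OX40 and carried at a high level by Tregs, had the same order of gates but another course over time. Tnfrsf18 measured 109 CPM (107 to 112) at day 7 and 101 CPM (98.3 to 103) at day 14 in the CD8 gate, so it was slightly lower at day 14. The CD4 gate held 191 CPM (178 to 204) and 289 CPM (274 to 305), and the Foxp3+ gate 812 CPM (693 to 945) and 1173 CPM (961 to 1417).

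4-1BB, a receptor for Tnfsf9 that is best known on activated CD8 T cells, was higher in the CD8 gate than in the CD4 gate. Tnfrsf9 stood at 87.8 CPM (85.7 to 90.0) and 165 CPM (162 to 168) in the CD8 gate at day 7 and day 14. It stood at 61.0 CPM (54.2 to 68.5) and 92.9 CPM (84.6 to 102) in the CD4 gate. Among non-cycling cells at day 7, the intervals of CD8 and CD4 cells overlapped. The Foxp3+ gate held 440 CPM (354 to 541) and 724 CPM (560 to 920), above both other gates.

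TNFR2, which binds TNF, was similar in CD8 and CD4 cells at each day. Tnfrsf1b measured 32.0 CPM (30.7 to 33.4) and 47.8 CPM (46.2 to 49.5) in the CD8 gate and 29.8 CPM (25.1 to 35.1) and 44.4 CPM (38.8 to 50.7) in the CD4 gate. In the Foxp3+ gate, 20 UMIs at each day gave 97.8 CPM (59.8 to 151) and 219 CPM (134 to 339). Day 14 was above day 7 without overlap in the CD8 and CD4 gates, while the intervals of the Foxp3+ gate overlapped.

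CD2, the adhesion and signaling receptor for CD48, stood at 377 CPM (372 to 381) and 425 CPM (420 to 430) in the CD8 gate. The CD4 gate held 413 CPM (395 to 432) and 503 CPM (483 to 523), and the Foxp3+ gate 900 CPM (775 to 1040) and 1151 CPM (941 to 1393). Cd2 was thus highest in the Foxp3+ gate at both days, without overlap with the others.

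CD226, an activating receptor for CD155, was the member with the reverse order of gates. Cd226 stood at 152 CPM (149 to 155) and 232 CPM (228 to 235) in the CD8 gate, and at 107 CPM (97.5 to 116) and 151 CPM (140 to 162) in the CD4 gate. In the Foxp3+ gate it was seen with 10 UMIs at day 7, or 48.9 CPM (23.5 to 90.0), and 3 UMIs at day 14, or 32.9 CPM (6.78 to 96.1). All intervals of the Foxp3+ gate lay below those of the other gates at the same day.

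Placed in order over 10 groups (the CD8 and CD4 gates each split into cycling and non-cycling cells, plus the Foxp3+ gate, at each day), the members had between 2 and 6 gaps among 9 neighboring pairs that exceeded both intervals. Foxp3+ cells at day 14 held the highest level of Cd27, Tnfrsf4, Tnfrsf9, Tnfrsf18, Tnfrsf1b and Cd2, and Foxp3+ cells at day 7 that of Icos. The highest group stood apart from the next for Cd27, Tnfrsf9 and Tnfrsf18. For Tnfrsf4, Tnfrsf1b, Cd2 and Icos it overlapped the Foxp3+ gate of the other day, so the order of the days was not resolved there. Non-cycling CD4 cells at day 14 were highest for Cd28, which did not differ beyond counting error from the Foxp3+ gate next to it (285 against 289 CPM). Cd226 was highest in non-cycling CD8 cells at day 14. It was lowest in Foxp3+ cells at day 14, which overlapped Foxp3+ cells at day 7. Cycling CD4 cells at day 7 were lowest for Cd27, Tnfrsf9, Tnfrsf1b and Cd2. Only for Cd27 did they lie below the next group without overlap, and for Tnfrsf1b the 5 lowest groups each overlapped their neighbor.

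The first comparison asked how far the receptors differed between day 14 and day 7. Differences are log2 ratios of CPM after adding 1 CPM, and a 2-fold difference was used as the call. In the CD8 gate, 0 of 9 members were at least 2-fold higher and 0 were at least 2-fold lower, against 1.83% of 6842 genes higher and 1.33% lower. The median gene was itself 0.18 higher at day 14 on this scale, so that values near 0.18 stood at the middle of the transcriptome. Above it lay 5 members and below it 4, with a member median of 0.40.

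Tnfrsf9 had the largest value in the CD8 gate, at 0.90 (0.87 to 0.96), ahead of Cd226 at 0.61 (0.57 to 0.65) and Tnfrsf1b at 0.56 (0.50 to 0.66). Tnfrsf4 at 0.42 (0.37 to 0.49) and Cd27 at 0.40 (0.36 to 0.43) followed. These 5 receptors were above the median gene. Tnfrsf4 was also higher at day 14 in myeloid cells outside the T cell gate (13.8 and 49.6 CPM) and in erythroid cells (1.02 and 69.2 CPM). The part of other cells' RNA in its CD8 day ratio was not tested. Without CD8 cells that had a Foxp3 UMI, Tnfrsf9 was still the largest at 0.98, but Tnfrsf4 at 0.70 and Tnfrsf1b at 0.63 then stood ahead of Cd226 at 0.59. Cd2 at 0.17 (0.15 to 0.20) sat at the median gene, and under median-ratio scaling its value was -0.05, so no direction is given for it. Icos at -0.01 (-0.07 to 0.05), Tnfrsf18 at -0.12 (-0.17 to -0.07) and Cd28 at -0.19 (-0.23 to -0.14) were below it. The sign of Icos turned under some alternatives, up to 0.16, so no direction is given for it either. After each cell was thinned to 4000 UMIs, Tnfrsf9 measured 1.04 and was the 1 member past 2-fold.

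In the CD4 gate, 0 of 9 members were at least 2-fold higher or lower, against 3.7% of 6979 genes higher and 1.19% lower. All 9 lay above the median gene of this gate (0.16), with a member median of 0.56. Within non-cycling CD4 cells all 9 again lay above the median gene. Within cycling CD4 cells 8 did, and Icos lay below it at -0.03 (-0.23 to 0.17). Tnfrsf1b in cycling CD4 cells measured 0.29 (-0.17 to 0.77), an interval that held 0. Tnfrsf4 had the largest value at 0.86 (0.76 to 0.97). Tnfrsf9, Tnfrsf18, Cd27, Tnfrsf1b and Cd226 fell between 0.50 and 0.60, and Cd28, Cd2 and Icos between 0.23 and 0.34. With a mean of per-cell CPM in place of summed UMIs, Tnfrsf4 measured 1.02 and was the 1 member past 2-fold.

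**Figure D2:**
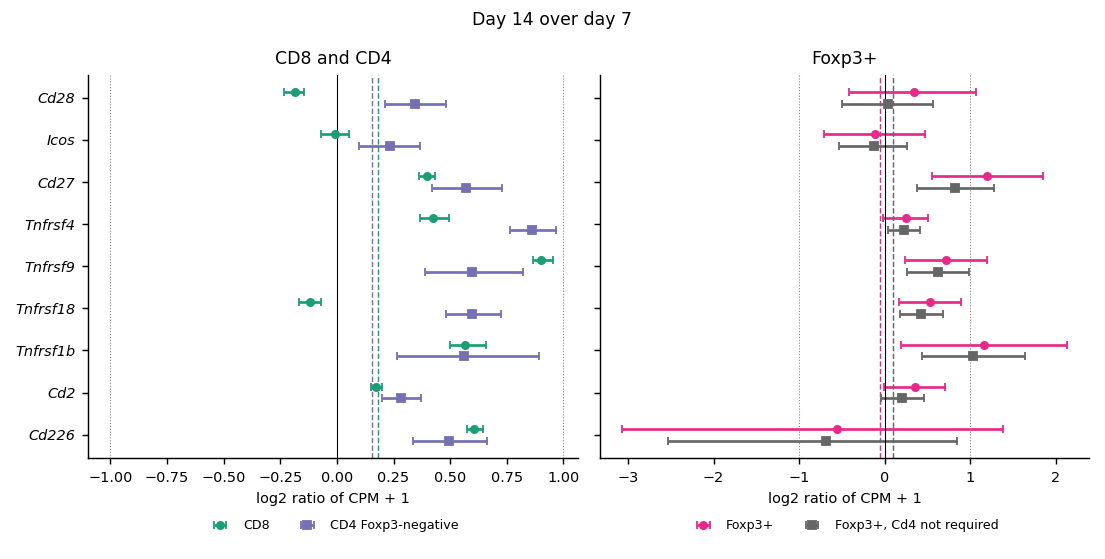
Log2 ratio of day 14 over day 7 for each member in the CD8 and CD4 Foxp3-negative gates (left) and in the Foxp3+ gate with and without the need for a Cd4 UMI (right); bars are exact conditional binomial intervals, dashed lines the median of all genes of the same color, dotted lines 2-fold. Cd28 and Tnfrsf18 lie left of 0 in CD8 cells and right of 0 in CD4 cells.

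The day ratio itself was set side by side for both lineages. The CD4 value exceeded the CD8 value by 0.72 (0.59 to 0.84) for Tnfrsf18, by 0.53 (0.39 to 0.67) for Cd28 and by 0.44 (0.32 to 0.56) for Tnfrsf4. The CD4 gate held no cell with a Foxp3 UMI, whereas the CD8 gate did. With such cells left out of the CD8 gate as well, the difference for Tnfrsf4 was 0.16 (0.04 to 0.28), while it was 0.67 (0.54 to 0.80) for Tnfrsf18 and 0.53 (0.38 to 0.67) for Cd28. For Tnfrsf9 the CD4 value was below the CD8 value. The difference was -0.31 (-0.52 to -0.09) with the whole CD8 gate and -0.38 (-0.60 to -0.16) without such cells. With the whole CD8 gate, the difference was -0.00 (-0.32 to 0.31) for Tnfrsf1b and -0.11 (-0.28 to 0.06) for Cd226. Without such cells it was -0.07 (-0.38 to 0.25) and -0.10 (-0.26 to 0.07). The day ratios of Tnfrsf1b and Cd226 were thus not told apart by lineage at this depth. These intervals cover counting error within 2 libraries and are not a test between mice.

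Cells in cycle made up much of both libraries, with 3726 of 5988 CD8 cells at day 7 and 3808 of 5994 at day 14 at or above 5 UMIs of 10 cell cycle genes per 10000. Within non-cycling CD8 cells (1207 and 1128), Tnfrsf9 was 1.38 (1.24 to 1.56) higher at day 14, Tnfrsf1b 0.93 (0.73 to 1.18), Tnfrsf4 0.82 (0.64 to 1.03) and Cd226 0.79 (0.69 to 0.89). Within cycling CD8 cells the same genes measured 0.80, 0.51, 0.32 and 0.56. Cd28 was lower at day 14 in both, at -0.25 and -0.16. Each day difference of these 5 genes therefore had the same direction in cycling and in non-cycling cells. Tnfrsf18 measured -0.13 (-0.19 to -0.07) in cycling CD8 cells but -0.03 (-0.16 to 0.09) in non-cycling ones, where the interval held 0. In the CD4 gate, 208 of 458 cells were cycling at day 7 and 241 of 695 at day 14. The part of this difference in the CD4 day ratios, and in their differences from CD8 cells, was not tested.

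In the Foxp3+ gate, 2 of the 8 members with enough UMIs were at least 2-fold higher at day 14 and 0 were lower, against 9.14% of 2045 genes higher and 9.34% lower. Both were Cd27, at 1.19 (0.55 to 1.85), and Tnfrsf1b, at 1.16 (0.19 to 2.13). Cd226 did not pass the filter on low values. With 20 and 14 cells this count was not stable: it was 1 when Cd4 was not required (42 and 39 cells), when at least 2 Foxp3 UMIs were required, when cells were thinned, and under a mitochondrial limit of 5%. Without the need for Cd4, Cd27 measured 0.82 (0.37 to 1.28) and Tnfrsf1b 1.03 (0.44 to 1.64).

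The second comparison asked how the receptors were divided between CD4 and CD8 cells of the same library. At day 7, 2 of 9 members were at least 2-fold higher in CD4 cells, against 1.28% of 6619 genes, and 0 were 2-fold lower, against 0.771%. They were Tnfrsf4, at 2.30 (2.23 to 2.42), and Icos, at 1.46 (1.37 to 1.58). At day 14, 3 of 9 were higher, against 2.57% of 7193 genes, and 0 lower, against 0.779%. Tnfrsf4 measured 2.74 (2.69 to 2.83), Icos 1.70 (1.61 to 1.82) and Tnfrsf18 1.51 (1.44 to 1.60), after 0.80 (0.70 to 0.90) for Tnfrsf18 at day 7.

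Tnfrsf9, Cd226 and Cd27 were on the CD8 side at both days. Tnfrsf9 measured -0.52 (-0.70 to -0.36) at day 7 and -0.82 (-0.97 to -0.70) at day 14. Among non-cycling cells at day 7, Tnfrsf9 stood at 58.6 CPM (53.5 to 64.1) in CD8 and 72.9 CPM (57.1 to 91.6) in CD4 cells. These intervals overlapped, so the CD8 side of Tnfrsf9 at day 7 holds for the whole gates and not for non-cycling cells. Cd226 measured -0.51 (-0.64 to -0.38) and -0.62 (-0.73 to -0.52), and Cd27 measured -0.53 (-0.66 to -0.41) and -0.35 (-0.45 to -0.26). Tnfrsf1b, at -0.10 (-0.36 to 0.14) and -0.10 (-0.31 to 0.09), was not separated by lineage at this depth. Cd28 was 0.34 (0.23 to 0.45) higher in CD4 cells at day 7 and 0.87 (0.78 to 0.97) at day 14.

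Next, the Foxp3+ gate was compared with CD4 cells without Foxp3. At day 7, 6 of 9 members were at least 2-fold higher, against 7.16% of 6636 genes, and 1 was lower, against 7.29%. Tnfrsf9 had the largest value at 2.83 (2.49 to 3.20), followed by Tnfrsf4 at 2.77 (2.60 to 2.95) and Tnfrsf18 at 2.08 (1.84 to 2.33). Tnfrsf1b measured 1.68 (0.96 to 2.40), Icos 1.30 (0.97 to 1.63) and Cd2 1.12 (0.90 to 1.34). These 6 include the receptors named above as Treg-associated. Cd226, at -1.11 (-2.19 to -0.23), was the 1 member on the other side.

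At day 14, 6 of 9 were again higher, against 14.2% of 7098 genes, and 1 lower, against 13.9%. Tnfrsf9 measured 2.95 (2.57 to 3.34), Tnfrsf1b 2.28 (1.56 to 2.96), Tnfrsf4 2.16 (1.94 to 2.37), Tnfrsf18 2.02 (1.72 to 2.30), Cd27 1.38 (0.91 to 1.83) and Cd2 1.19 (0.90 to 1.48). Cd226 stood at -2.16 (-4.48 to -0.64), from 3 UMIs. Of these, 5 were past 2-fold at both days, Icos only at day 7 (0.96 at day 14) and Cd27 only at day 14 (0.76 at day 7). Where at least 2 Cd4 UMIs were required, 9 of 20 and 5 of 14 Foxp3+ cells remained, Icos at day 7 turned to -0.28 and no member was 2-fold lower at either day.

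**Figure D3:**
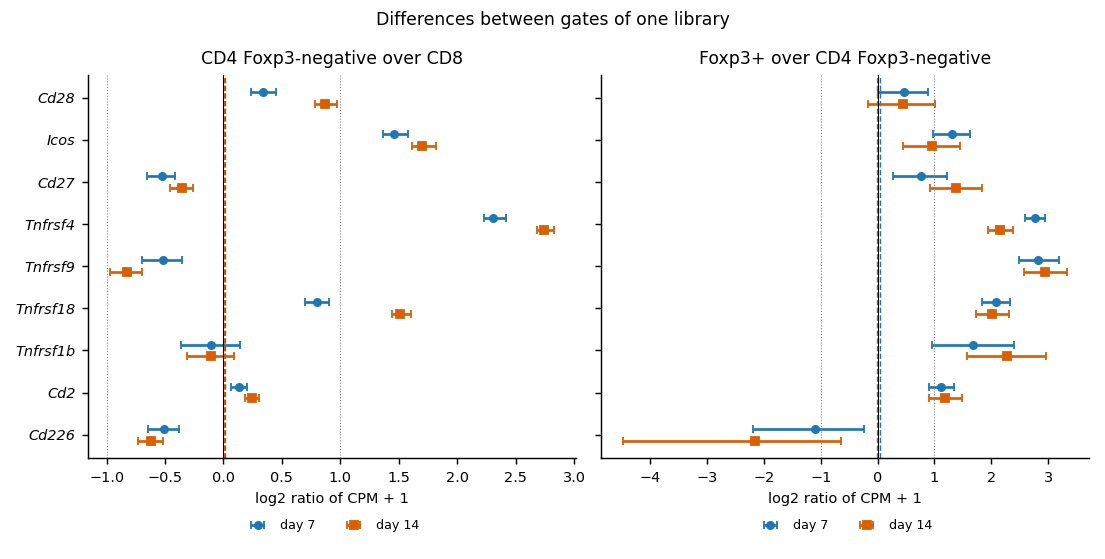
Log2 ratio between gates of the same library, for CD4 Foxp3-negative over CD8 cells (left) and Foxp3+ over CD4 Foxp3-negative cells (right) at day 7 and day 14, with exact conditional binomial intervals; dashed lines are medians of all genes and dotted lines 2-fold. Tnfrsf4 is right of 2-fold in both panels, and Cd226 is left of 0 in both.

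Foxp3 UMIs were also found in the CD8 gate, which was noticed after the values were seen. At day 7, 98 CD8 cells held at least 2 Foxp3 UMIs, and at day 14, 16 did. Their median number of Cd8a and Cd8b1 UMIs was 12 and 10.5, against 9 and 10 in CD8 cells without Foxp3, and none held a Cd4 UMI by definition of the gate. Their median depth was 13695 and 18934.5 UMIs, against 9251.5 and 8589. On the CPM scale, Cd8a stood at 300 against 196 CPM at day 7 but at 307 against 487 CPM at day 14. Cd8b1 stood at 719 against 682 CPM at day 7 and at 388 against 558 CPM at day 14. Il2ra stood at 175 against 36.4 CPM at day 7, Ctla4 at 249 against 44.6 CPM and Ikzf2 at 130 against 15.3 CPM. The part of doublets in these cells was not tested.

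At day 7, Tnfrsf4 was 3.39 (3.30 to 3.55) higher in these cells than in CD8 cells without Foxp3, Tnfrsf1b 1.67 (1.46 to 1.94), Tnfrsf9 1.60 (1.46 to 1.75), Tnfrsf18 1.42 (1.29 to 1.57) and Icos 1.26 (1.08 to 1.47). Cd226 was lower, at -0.64 (-0.88 to -0.41). At day 14, Tnfrsf4 measured 3.28 (3.08 to 3.52), Tnfrsf18 2.16 (1.90 to 2.42), Tnfrsf1b 1.09 (0.52 to 1.63), Icos 1.00 (0.49 to 1.49) and Cd226 -1.18 (-1.76 to -0.66). Tnfrsf9, at 0.60 (0.25 to 0.94), was no longer past 2-fold. The 98 cells were 1.64% of the CD8 gate at day 7 and held 672 of its 3631 Tnfrsf4 UMIs, or 18.5%. With every CD8 cell that had a Foxp3 UMI left out, Tnfrsf4 in CD8 cells stood at 39.8 CPM (38.3 to 41.3) and 65.4 CPM (63.4 to 67.3), and its day ratio was 0.70 in place of 0.42.

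Cycling cells carried fewer CPM of most receptors than non-cycling cells. In CD8 cells at day 7, 0 of 9 members were at least 2-fold higher in cycling cells, against 7.94% of 6575 genes, and 0 were lower, against 1.86%. At day 14, 0 of 9 were higher, against 7.47% of 7084 genes, and 0 lower, against 2.81%. Cd27 measured -0.66 (-0.73 to -0.59) and -0.61 (-0.68 to -0.54), and Tnfrsf18 measured -0.52 (-0.62 to -0.44) and -0.62 (-0.73 to -0.52). Tnfrsf9 alone was above 0 beyond its interval, at 0.70 (0.57 to 0.84) and 0.11 (0.01 to 0.21). Tnfrsf4 was at 0.10 (-0.05 to 0.26) at day 7 and -0.41 (-0.55 to -0.28) at day 14. Its day 7 value was 0.53 without CD8 cells that had a Foxp3 UMI and -0.03 after thinning, so no direction is given for it at that day.

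In CD4 cells, all 9 members lay below the median gene at both days. At day 7, 0 members were past 2-fold, and at day 14, 2 were at least 2-fold lower in cycling cells (Icos and Cd27). At day 14, 7.56% of 7263 genes had a lower value than Cd27. Cd27 measured -0.94 (-1.24 to -0.65) at day 7 and -1.02 (-1.25 to -0.80) at day 14, and Icos -0.52 (-0.77 to -0.28) and -1.05 (-1.26 to -0.84). Tnfrsf9 measured -0.48 (-0.90 to -0.07) and -0.41 (-0.74 to -0.09), opposite in sign to its value in CD8 cells. Cycling cells had more UMIs in all (medians of 12505 against 6298 in CD8 cells at day 7), and the part of total RNA per cell in these ratios was not tested. Within 1 UMI above or below the cycling limit per 10000 lay 3.76% of CD8 cells at day 7 and 4.19% at day 14.

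**Figure D4:**
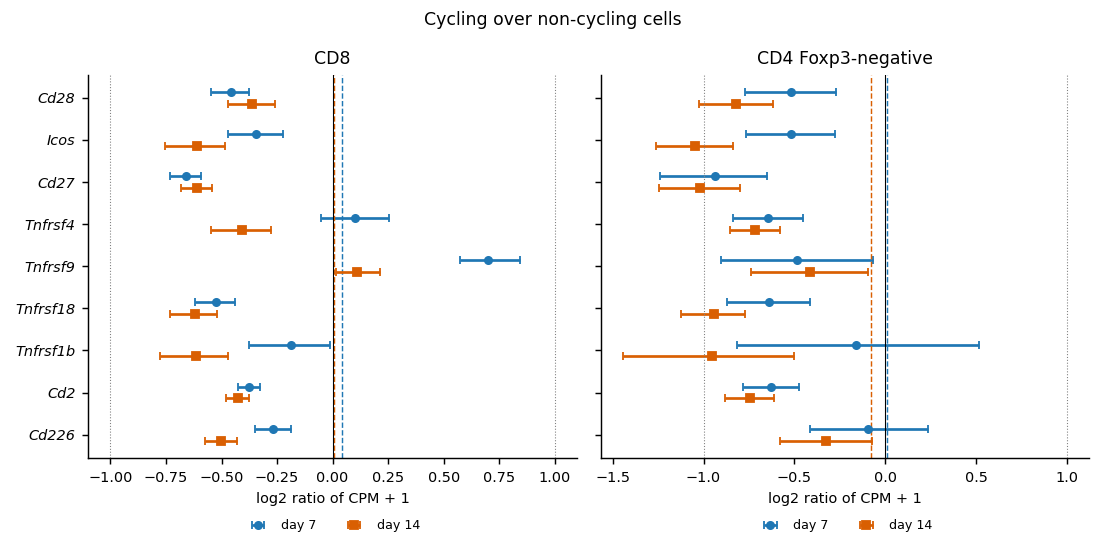
Log2 ratio of cycling over non-cycling cells for each member in CD8 (left) and CD4 Foxp3-negative cells (right) at day 7 and day 14, with exact conditional binomial intervals; dashed lines are medians of all genes and dotted lines 2-fold. Tnfrsf9 in CD8 cells at day 7 stands at 0.70, right of the other members.

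At equal depth, the share of cells with a UMI gave the breadth of each receptor. Cells were thinned to 4000 UMIs, which left out 102 and 486 CD8 cells and 13 and 200 CD4 cells. Tnfrsf4 was detected in 9.53% (8.79 to 10.3) of CD8 cells at day 7 and 16.5% (15.6 to 17.5) at day 14, and in 42.9% (38.3 to 47.7) and 62.4% (58.0 to 66.7) of CD4 cells. Before thinning its share of CD8 cells at day 7 was 19.6%. In the Foxp3+ gate 18 of 20 cells held Tnfrsf4 at day 7 and 12 of 13 at day 14.

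Tnfrsf9 was detected in 22.0% (21.0 to 23.1) and 39.4% (38.1 to 40.7) of CD8 cells and in 17.8% (14.3 to 21.6) and 27.3% (23.4 to 31.4) of CD4 cells. Cd226 was detected in 44.3% (43.0 to 45.6) and 57.1% (55.7 to 58.4) of CD8 cells and in 29.7% (25.5 to 34.1) and 42.4% (38.0 to 46.9) of CD4 cells. Cd2 was the most widely shared, in 77.2% and 80.0% of CD8 cells and 80.7% and 82.6% of CD4 cells. Cd28 was found in 39.8% (38.5 to 41.1) and 35.7% (34.5 to 37.0) of CD8 cells, lower at day 14, and in 49.2% (44.5 to 54.0) and 52.5% (48.0 to 57.0) of CD4 cells.

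Myeloid cells outside the T cell gate, with median depths of 8954 UMIs at day 7 and 6520.5 at day 14, were used to read the background. After thinning, Tnfrsf4 was found in 1 of 58 of them (1.72%, 0.0436 to 9.24) at day 7 and in 7 of 67 (10.4%, 4.3 to 20.3) at day 14, so the Tnfrsf4 shares of CD8 cells were not separated from this background at either day. On the CPM scale, before thinning, Tnfrsf4 stood at 13.8 CPM (7.55 to 23.2) and 49.6 CPM (36.7 to 65.5) in myeloid cells, against 50.9 and 68.6 CPM in CD8 cells. The 42 erythroid cells at day 7 held 1.02 CPM (0.0258 to 5.67) from 1 UMI, and the 28 at day 14 held 69.2 CPM (37.8 to 116). Tnfrsf4 was thus higher at day 14 in both kinds of cells outside the T cell gate as well. The part of RNA from T cells in these droplets, and of such RNA in the CD8 values, was not tested.

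Tnfrsf1b, which myeloid cells are known to make themselves, was found in 10.3% (3.89 to 21.2) and 11.9% (5.30 to 22.2) of myeloid cells, and its shares of CD8 cells, 11.6% (10.8 to 12.4) and 18% (17.0 to 19.0), were not separated from these. Cd28, Icos, Cd27, Tnfrsf9, Tnfrsf18, Cd2 and Cd226 were found in 1.72% to 15.5% of myeloid cells at day 7 and in 4.48% to 17.9% at day 14, and the intervals of all 7 lay below their shares of CD8 cells. Myeloid cells without a Cd3 UMI (36 and 34) held Cd28, Icos, Cd27, Tnfrsf4 and Tnfrsf9 in 0 cells at both days, for which intervals reach 9.74% and 10.3%, but that choice itself takes out droplets with T cell RNA.

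**Figure D5:**
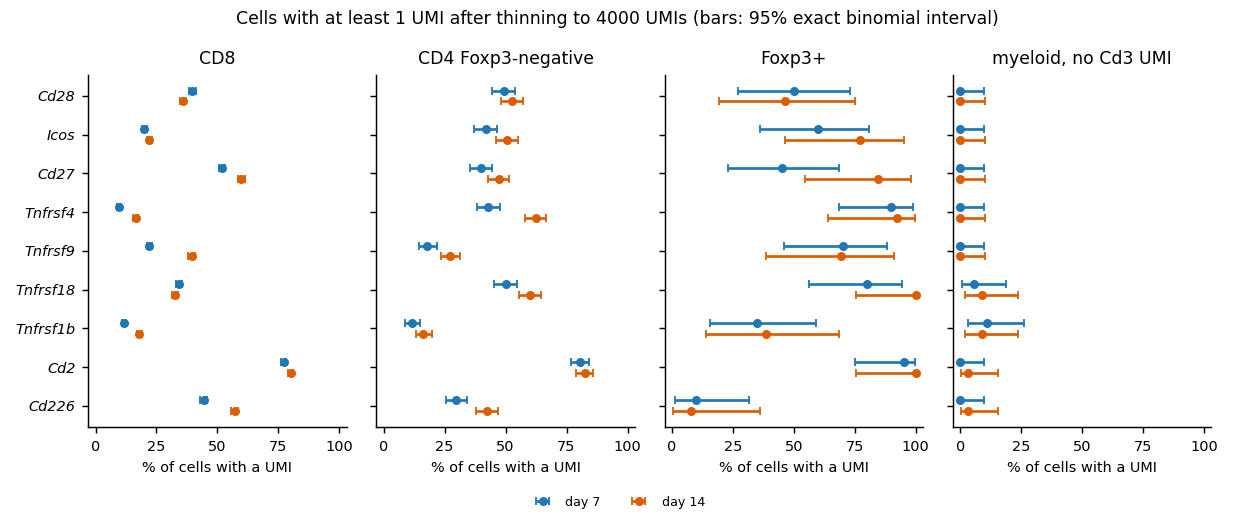
Percentage of cells with at least 1 UMI of each member after thinning to 4000 UMIs, in the CD8, CD4 Foxp3-negative and Foxp3+ gates and in myeloid cells without a Cd3 UMI, a choice that takes out droplets with T cell RNA, at day 7 (blue) and day 14 (orange). Bars are exact binomial (Clopper-Pearson) intervals; Tnfrsf9 in CD8 cells stands at 22.0% and 39.4%, and Cd226 in Foxp3+ cells at 10% and 7.69%.

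Counted over the 9 members, a thinned CD8 cell showed a mean of 3.10 different receptors at day 7 and 3.61 at day 14, and 15.1% and 26.0% of CD8 cells showed 5 or more. In CD4 cells 29.0% and 47.9% did (of 445 and 495 thinned cells), and in Foxp3+ cells 60.0% and 92.3%. The Foxp3+ shares rest on 20 and 13 cells, so no difference between days is read from them. Spread among cells differed between receptors. The variance of Tnfrsf4 UMIs was 2.66 times their mean in CD8 cells at day 7, or 1.75 times without CD8 cells that had a Foxp3 UMI, and 3.35 and 3.74 times in CD4 cells at day 7 and day 14. For Cd28 and Cd27 the same quotient was 1.14 and 1.16 in CD8 cells at day 7.

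Pairs of receptors were seen together to unlike degrees. In CD8 cells at day 7, Tnfrsf4 was found in 16.0% (14.1 to 18.2) of cells with a Tnfrsf9 UMI and 7.69% (6.94 to 8.5) of cells without one, a quotient of 2.08. Without CD8 cells that had a Foxp3 UMI the quotient was 1.74, and at day 14 it was 1.41. For the neighboring genes, Tnfrsf18 was found in 49.0% of CD8 cells with Tnfrsf4 and 32.8% of those without at day 7, and in 40.7% and 31.1% at day 14. Tnfrsf4 and Cd226 avoided each other slightly, with Tnfrsf4 in 15% (13.7 to 16.3) of Cd226-positive and 18.6% (17.1 to 20.3) of Cd226-negative CD8 cells at day 14. Over all 72 ordered pairs in CD8 cells the median quotient was 1.04 at day 7 and 1.05 at day 14. Cells are not replicates, so these are descriptions with no test.

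Immediate early genes (Nr4a1, Nr4a2, Nr4a3, Egr1 and Egr2), which follow recent antigen receptor signals, were used to divide thinned cells. At least 2 of their UMIs were present in 227 CD8 cells (3.86%) at day 7 and 687 (12.5%) at day 14, and in 24 CD4 cells (5.39%) and 57 (11.5%). In CD8 cells at day 14, Tnfrsf4 was 0.83 (0.63 to 1.04) higher in these cells than in cells with none, Tnfrsf1b 0.65 (0.43 to 0.89) and Tnfrsf9 0.37 (0.23 to 0.51), with a median gene at 0.02. Icos at 0.36 (0.15 to 0.57), Cd27 at 0.31 (0.20 to 0.42), Tnfrsf18 at 0.27 (0.09 to 0.44) and Cd28 at 0.25 (0.09 to 0.42) were also above the median gene. Cd2 at 0.10 (0.01 to 0.18) and Cd226 at 0.04 (-0.08 to 0.15) were near it. In CD8 cells at day 7, Tnfrsf1b measured 0.69 (0.24 to 1.15), Tnfrsf4 0.49 (0.05 to 0.93) and Tnfrsf18 -0.07 (-0.38 to 0.23), with a median gene at 0.08. In CD4 cells, Tnfrsf9 measured 1.49 (0.99 to 2) at day 14 and 1.21 (0.16 to 2.16) at day 7, and Tnfrsf4 measured 0.58 (0.31 to 0.84) and 1.19 (0.73 to 1.62). Some members went the other way in CD4 cells, such as Tnfrsf1b at -0.60 (-2.12 to 0.59) at day 14 and Cd226 at -1.83 (-4.15 to -0.29) at day 7. At day 14, median depth before thinning was 9633 UMIs in CD8 cells with these genes and 9187 in those without, and 6261 and 7457 in CD4 cells. Cell cycle genes also differed, with medians of 13.5 and 18.4 UMIs per 10000 in CD8 cells and 2.15 and 4.63 in CD4 cells, and their part in these ratios was not tested.

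The patterns over groups were compared as a description, over 8 groups (cycling and non-cycling CD8 cells, CD4 cells and Foxp3+ cells at each day) that come from 2 libraries and share their depth. Among 6967 genes, Tnfrsf4 and Icos were each other's close neighbors, with a Pearson r of 0.98, and Tnfrsf4 and Tnfrsf18 had an r of 0.96. The 3 genes most like Icos were Pdcd1lg2, Tnfrsf4 and Orai1, and those most like Tnfrsf18 were Pex16, Cd274 and Srgn. Those most like Cd28 were Timp2, Nfkbiz and Rab37, and those most like Cd27 were Fam149b, Zdhhc18 and Rpap2. Tnfrsf4 was followed by Icos, Tspan32 and Ly6a, Tnfrsf9 by Faap100, Smg5 and C1qtnf6, and Tnfrsf1b by Ctbs, Clk4 and Atp6v1b2. Cd2 was followed by Dok1, Mxd1 and Atp6v1d, and Cd226 by Apbb1ip, Prex1 and mt-Nd3. Against the other members, Cd226 had negative values throughout, from -0.27 with Cd27 to -0.90 with Tnfrsf18. The Foxp3+ groups hold 20 and 14 cells, so their levels are the least precise of the 8. Genes needed a mean of 10 CPM over the 8 groups, each counted alike, so a few UMIs in the Foxp3+ groups can bring a gene past this limit. Many members were also highest in these groups. The named genes can thus reflect this limit and counting error, and a link to the members was not tested.

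Related genes in 4 lists were set beside the receptors. Of 12 ligands, 2 passed the filter in CD8 cells, and neither was 2-fold different between days. Cd48, the ligand of CD2, measured 567 and 449 CPM (log2 -0.34), and Tnfsf9, the ligand of 4-1BB, 12.2 and 12.1 CPM (-0.01). The others fell under the limit of 10 CPM, so no call was made for them. Among these, Tnfsf4 was higher at day 14, at 0.24 and 3.99 CPM (17 and 265 UMIs). Icosl was lower, at 2.96 and 1.11 CPM (211 and 74 UMIs). Of the 4 inhibitory receptors that share a ligand with a member, Ctla4, the competitor of CD28, measured 50 and 44.8 CPM in CD8 cells (-0.16) but 46.7 and 83.9 CPM in CD4 cells (0.83). In CD8 cells Cd96 measured 41.7 and 50.8 CPM (0.28) and Cd244a, the CD48 receptor 2B4, 9.54 and 14.2 CPM (0.53). Tigit did not pass the filter, with 5.14 and 6.33 CPM.

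Of 26 signal transducers, 24 passed the filter in CD8 cells, with 1 at least 2-fold higher at day 14 (1.83% of all genes), 0 lower (1.33%) and a median of 0.27. The highest was Fyn, a Src family kinase that acts below CD2 and CD28, at 119 and 257 CPM (1.11), and the lowest was Nfkbia, the NF-κB inhibitor, at 226 and 161 CPM (-0.49). In CD4 cells 24 passed, with 2 higher (3.7% of all genes), 0 lower (1.19%) and a median of 0.37. Of 11 other costimulatory molecules, 7 passed in CD8 cells, with 1 higher and 0 lower against the same shares of all genes, and a median of 0.20. Cd81, a tetraspanin, was the highest at 4.90 and 18 CPM (1.69), and Slamf1, a homophilic receptor, the lowest at 27.1 and 23.0 CPM (-0.23). Cd81 was the 1 molecule counted as higher. The filter uses the mean of both days, and Cd81 passed it only through its day 14 level, so this count rests on that choice. Between lineages, 5 of 9 such molecules at day 7 and 6 of 9 at day 14 were at least 2-fold higher in CD4 cells, and 1 and 0 were lower. Of all genes tested, 1.28% and 2.57% were higher and 0.771% and 0.779% were lower. Some of these molecules also passed the filter only through their higher side, such as Cd40lg, with 4.03 and 1.73 CPM in CD8 cells at day 7 and day 14.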

How the data were processed

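Per the labels and the submitters' processing notes, reads were processed with Cell Ranger 6.1.2 on mm10, and the deposited values are whole-number UMI counts per gene and barcode, with no normalization. The study's own filters on cells were used here. Gates were set on raw UMIs (1 or more UMIs from Cd8a and Cd8b1 without any from Cd4, or the reverse; T cells under 50 UMIs of other lineages per 10000; non-cycling at most 1 per 10000), so fewer UMIs of a gate gene and fewer such cells cannot be told apart. UMIs were summed per gate and divided by the gate's total to give CPM. Genes needed a mean of 10 CPM and 20 UMIs over both sides. Totals were 87124828 UMIs at day 7 and 84233811 at day 14. Intervals are exact Poisson, conditional binomial and Clopper-Pearson, at 95%, except that differences between day ratios have an interval from the summed variances of log counts. No p-values were computed.

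Scrublet (scanpy 1.11.5) called 0 doublets in both libraries, which is taken as a failed call, so doublets were not removed. The members and lists were chosen with earlier results of these data known. All members are named; of each list the highest and lowest ratio in CD8 cells and all inhibitory receptors are named, with the 3 most alike genes per member. The κB pattern was widened to the textbook consensus after the sequences were seen, and it was searched on the given strand only. The calculation was tested on simulated data. Python 3.11.15, numpy 2.4.6, scipy 1.17.1 and pandas 2.3.3 were used. RefSeq promoters (GRCm38.p6) and gene positions from a mouse annotation of that assembly were used; Cd226 is given without position or sequence. Barcode and gene lists hold no measurement. Alternatives were another scaling, the mean of per-cell CPM, thinning, and other limits on mitochondrial UMIs, doublet scores, gates, other lineages, low values, added CPM and cycling.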

Additional observations from a re-analysis of the deposited data

Results flagged for a closer look

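Cd28 and Tnfrsf18 had opposite directions between days in the CD8 and CD4 gates. Cd28 measured -0.19 on the log2 scale in CD8 cells and 0.34 in CD4 cells for day 14 over day 7. Tnfrsf18 measured -0.12 in CD8 cells and 0.60 in CD4 cells. In non-cycling CD8 cells Tnfrsf18 measured -0.03 (-0.16 to 0.09), an interval that holds 0. With 1 library per day, the difference between the gates was not tested.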

How the results depend on the processing

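Of 188 recomputed counts of members past 2-fold, 179 stayed within 1.5 times the reported count and 9 did not. Under thinning to 4000 UMIs, 1 member was 2-fold higher at day 14 in CD8 cells (Tnfrsf9) in place of 0. Under the mean of per-cell CPM, 1 was higher in CD4 cells (Tnfrsf4) in place of 0. In the Foxp3+ gate, the 2 members higher at day 14 became 1 under thinning, under a mitochondrial limit of 5%, with at least 2 Foxp3 UMIs and without the need for Cd4. The 1 member lower in Foxp3+ than in CD4 cells became 0 at day 7 under thinning and, at both days, with at least 2 UMIs of Cd4. That last setting, which left 9 and 5 Foxp3+ cells, turned Icos at day 7 from 1.30 to -0.28. The cause was not tested beyond the number of cells. No other called value reversed under any alternative. The settings on Foxp3 in CD8 cells and on Cd4 in the Foxp3+ gate were chosen after seeing the data. No paired analysis was possible because each day has 1 library, and leaving out a replicate was not possible for the same reason. Depth limits the Foxp3+ gate most, where 3 UMIs are 14.7 CPM (day 7) and 32.9 CPM (day 14).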
